A study of Mus musculus with 16 samples.

Results

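Immediate early genes are switched on within minutes of a stimulus without new protein synthesis, and 10 of them were followed here by gene symbol among the 22396 gene symbols listed for sorted mouse colonic epithelium. Subunits of the transcription factor AP-1 made up 5 of them (Fos, Fosb, Jun, Junb and Jund), and the others were the transcription factors Egr1 and Atf3, the nuclear regulator Ier2, the MAP kinase phosphatase gene Dusp1 and the mRNA decay factor gene Zfp36. EpCAM+ cells, which carry the epithelial surface protein EpCAM, were sorted from enzyme-digested distal colonic mucosa of 16 mice, and 1 polyA library was sequenced per mouse. By the study's methods, DSS-treated colons were first dissected under a stereomicroscope, and injured regions were taken for digestion. The question put to the samples by the study was how loss of TNF receptor 2 in the epithelium alters its RNA after injury by dextran sulfate sodium (DSS).

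All 16 mice carried the floxed allele on both copies (Tnfr2-f/f), with loxP sites around exon 2 of Tnfrsf1b, the gene of TNF receptor 2. Controls had no further allele. The mice labelled knockout also carried Vil1::Cre, in which the villin promoter drives Cre recombinase in intestinal epithelial cells only, so that other cells in a sort would keep the receptor. Water was given to 4 controls and 5 mice labelled knockout, and 3% DSS for 6 days to 3 controls and 4 mice labelled knockout, with dissection on day 12 by the labels. The study's methods give a higher concentration of DSS than the labels, and its text calls the uninjured mice day 0. The mice were 8 weeks old at the start by the study's methods, and the background strain of the floxed line was not given in the sources used here. All 7 DSS-treated mice were female. Cage c held control 3 and knockout 1, and cage d held the other 5. Among water-treated mice, cage a held 4 males and cage b held 5 females, so that sex and cage cannot be told apart. No cage held both treatments, so cage and treatment cannot be told apart either.

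AP-1 is a dimer of a Jun protein with a Fos, Jun or ATF family protein and binds the TPA response element. Growth factors, cytokines and stress reach these genes through MAP kinases, which act on serum response factor and its partners at CArG boxes and on CREB family proteins at cyclic AMP response elements. Dusp1 removes the activating phosphates from MAP kinases, and Zfp36 (tristetraprolin) destabilises AU-rich mRNAs, so that both end the response that induces them. In colon, AP-1 and Egr1 are known to respond to wounding. Enzymatic digestion of tissue is also known to induce these genes, and since no undigested tissue was analysed here, RNA present in the tissue and RNA made during isolation cannot be told apart.

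The promoters of Fos and of Junb, Dusp1 and Zfp36 are shown because the ratios of the latter to Fos within a mouse are compared further down. Each is the 250 bases before RefSeq's start (build GRCm38.p6), and 8 of the 10 members had an entry. Capitals mark the cyclic AMP response element core TGACGT on either strand, the TATA box TATAAA and the CArG box.
Fos, chr12:85473640-85473889, + strand: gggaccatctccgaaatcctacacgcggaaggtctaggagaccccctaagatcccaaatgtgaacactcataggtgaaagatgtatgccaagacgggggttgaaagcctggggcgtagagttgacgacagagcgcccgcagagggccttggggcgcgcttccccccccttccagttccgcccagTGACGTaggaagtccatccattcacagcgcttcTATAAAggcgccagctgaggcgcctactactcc
Junb, chr8:84978749-84978998, - strand: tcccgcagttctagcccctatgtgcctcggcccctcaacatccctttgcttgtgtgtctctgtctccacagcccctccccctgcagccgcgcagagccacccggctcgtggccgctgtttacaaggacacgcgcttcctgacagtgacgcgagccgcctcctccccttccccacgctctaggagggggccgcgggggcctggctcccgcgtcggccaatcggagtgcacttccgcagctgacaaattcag
Dusp1, chr17:26508473-26508722, - strand: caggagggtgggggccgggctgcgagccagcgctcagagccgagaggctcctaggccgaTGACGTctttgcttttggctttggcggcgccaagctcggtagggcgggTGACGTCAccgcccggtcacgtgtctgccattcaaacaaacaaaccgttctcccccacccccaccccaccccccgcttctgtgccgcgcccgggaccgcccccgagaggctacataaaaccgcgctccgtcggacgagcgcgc
Zfp36, chr7:28379229-28379478, - strand: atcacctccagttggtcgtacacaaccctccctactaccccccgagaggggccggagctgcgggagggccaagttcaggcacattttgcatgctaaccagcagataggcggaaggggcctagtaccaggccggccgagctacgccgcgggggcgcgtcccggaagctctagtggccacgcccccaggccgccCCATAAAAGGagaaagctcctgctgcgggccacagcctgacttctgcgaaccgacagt
The Fos window held TGACGT 66 to 61 bases and TATAAA 33 to 28 bases before the start. In Dusp1, TGACGT stood 191 to 186 and 143 to 138 bases before the start, the latter overlapping a match on the other strand. A CArG box, whose pattern matches on both strands, stood 58 to 49 bases before the RefSeq start of Zfp36. The listed Zfp36 transcript is 2790 bases long, in a gene at 28376784 to 28380253 of chromosome 7. It therefore starts upstream of the printed window, which lies inside its span and is not the promoter of that transcript. The Junb window held none of the motifs searched. The Jund window, not printed, ended at base 70697738 of chromosome 8, well before the start of the listed Jund transcript at 70698949. It is counted among the 8 windows by its RefSeq start. Over the 8 windows, TGACGT was found in 3 (Fos, Dusp1 and Atf3), against 6.47% of 32851 promoter windows of the same length. The AP-1 site TGANTCA was in 0 of the 8 and in 6.75% of all windows, TATAAA was in 1 and in 12.4%, and the CArG box was in 1 and in 1.47%. These matches describe letters in a window and not bound sites, and sites farther upstream than 250 bases were not searched in any gene.

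Several properties of the libraries bear on the members. The targeted gene did not separate the genotypes: Tnfrsf1b was at 13.5, 15.4, 11.1 and 15.5 TPM in the water-treated controls and at 11.4, 10.1, 9.23, 14.8 and 13.3 TPM in the water-treated mice labelled knockout, and it was at 22.2, 13.9 and 13.3 against 27.0, 13.5, 15.2 and 17.7 TPM after DSS (exact permutation test, two-sided, p = 0.183 and p = 0.629). The summed level of all listed exons does not isolate exon 2, so this is no test of the deletion, and groups are called by their labels. The epithelial markers were present in every mouse, at a summed 4638 to 7590 TPM for 8 of 8 genes. Of 14 leukocyte markers, the summed level was 1690 to 14800 TPM in water-treated mice and 23.4 to 491 TPM in DSS-treated mice, where Cd8a was at 0 in every mouse. Stromal markers, of which 9 of 10 were listed, summed to 175 to 481 TPM in water and 73.5 to 300.1 TPM after DSS. In bulk RNA, fewer cells of a type and less RNA per cell cannot be told apart, and the part of these cells in the members' levels was not tested.

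The libraries also differed in how levels depended on the GC content of the transcript. For each mouse, the deviation of each gene from its median over 16 mice was taken on the log2(TPM + 1) scale for the 7279 genes averaging 5 TPM or more. The median deviation of 271 genes above 60% GC minus that of 1512 genes at or under 45% GC was between 0.08 and 0.63 in the 9 water-treated mice. It was between -0.998 and -0.57 in the 5 mice of DSS cage d. In cage c it was -0.43 in knockout 1 and 0.54 in control 3, which thus lay in the range of the water-treated mice. The members span this axis. Jund (67.1% GC), Junb (62.6%) and Ier2 (60.9%) lay at percentiles 99.9, 99.0 and 97.5 of GC among genes at 1 TPM or more, while Fos (51.9%) and Atf3 (52.2%) lay near its middle. Beside results across cages or treatments, values with the GC trend of each mouse removed by a loess curve are therefore given, an alternative added after the data were seen.

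**Figure D1:**
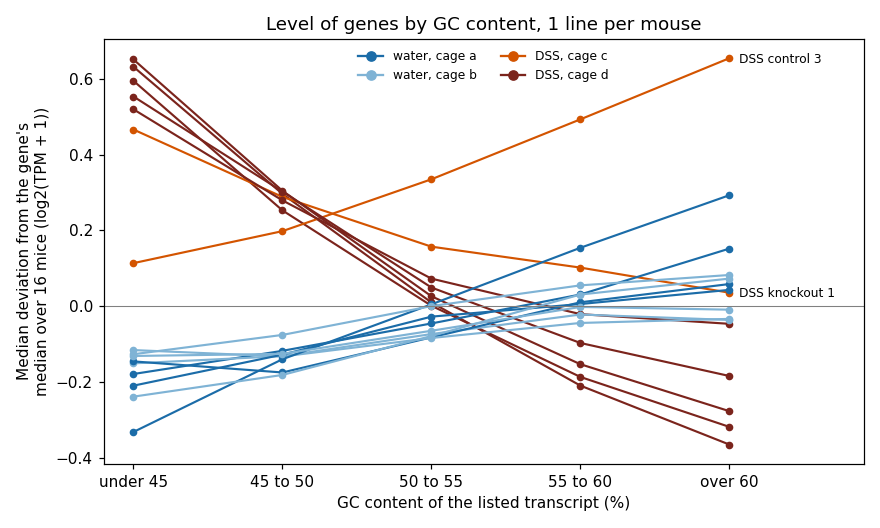
Median deviation of genes from their median over 16 mice (log2(TPM + 1), y axis) in 5 classes of transcript GC content (x axis), with 1 line per mouse coloured by cage. Lines of DSS cage d fall with GC content, those of water-treated mice are flatter or rise, and DSS control 3 rises to 0.65 above 60% GC.

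Immediate early RNA was abundant in every library. The 10 members together took 0.369 to 0.858% of the listed TPM of a mouse in water and 0.408 to 0.758% after DSS. Fos ranked between 44 and 122 among the 22396 gene symbols of a mouse, and the lowest rank of any member was 1300, for Zfp36 in water knockout 2. By the median over water-treated mice, the order was Fos (1021 TPM), Atf3 (546), Jun (533), Junb (498), Fosb (396), Egr1 (391), Dusp1 (307), Ier2 (250.3), Jund (181) and Zfp36 (78.9). The ranges of neighbours in this order overlapped, except those of Fos and Atf3 (829 to 1153 against 433 to 632 TPM) and those of Jund and Zfp36 (149.7 to 258 against 43.5 to 113 TPM).

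Among the Fos family subunits, which need a partner to bind DNA, Fos was at 1106, 932, 1147 and 1153 TPM in water-treated controls 1 to 4 and at 1066, 829, 1021, 1021 and 983 TPM in water-treated knockouts 1 to 5. After DSS it was at 791, 859.9 and 1003 TPM in controls 1 to 3 and at 1122, 820.1, 984 and 820.0 TPM in knockouts 1 to 4. The 4 groups overlapped. Fosb, whose product pairs with the same partners, was at 421, 435, 407 and 470.1 TPM in water-treated controls and at 379, 234, 288, 396 and 348 TPM in water-treated knockouts. After DSS, Fosb was at 233, 229.5 and 461 TPM in controls and at 388, 256, 357 and 285 TPM in knockouts. The water-treated controls were all above the water-treated knockouts, and both mice of cage c were above the 5 mice of cage d. Only 0.27% of the 31-base words of the listed Fosb transcript occur in none of its 6 other transcripts, which means that kallisto divided its reads among isoforms of which 1 is listed.

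Of the Jun family, Junb was at 653, 487, 491 and 498 TPM in water-treated controls and at 635, 363, 500.1, 528 and 441 TPM in water-treated knockouts. After DSS it was at 126, 144 and 541 TPM in controls and at 300.1, 151, 184 and 174 TPM in knockouts. DSS control 3 was thus at the level of the water-treated mice, knockout 1 lay between, and the 5 mice of cage d were all below every water-treated mouse. Jund, the member least dependent on stimulation, was at 258, 149.7, 167 and 181 TPM in water-treated controls and at 235, 209, 155, 199 and 166 TPM in water-treated knockouts. After DSS, Jund was at 79.7, 73.5 and 227 TPM in controls and at 129, 95.4, 106 and 92.4 TPM in knockouts, in the same order of cages as Junb. Jun, a partner of the Fos proteins, lay at 459 to 757 TPM in water and at 299.7 to 606 TPM after DSS, where control 3 was again highest and knockout 1 next. Jun, Junb, Jund and Ier2 are each listed with a single-exon transcript in GENCODE M21.

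The other transcription factor genes differed less between treatments. Egr1, a zinc finger factor, was at 203 to 488 TPM in water and at 263 to 434 TPM after DSS, and Atf3, a stress-induced bZIP factor, was at 433 to 632 and at 457 to 706 TPM. Ier2 was at 307, 252, 254 and 246 TPM in water-treated controls and at 366, 199, 250.3, 227 and 229 TPM in water-treated knockouts. After DSS, Ier2 was at 122, 135 and 353 TPM in controls and at 236, 142, 177 and 149 TPM in knockouts, with cage d below every water-treated mouse and control 3 among the highest of all 16. The feedback gene Dusp1 was at 345, 318, 307 and 287 TPM in water-treated controls and at 340.2, 170.0, 277, 339 and 248 TPM in water-treated knockouts. After DSS, Dusp1 was at 164, 136 and 212 TPM in controls and at 182, 148, 170.4 and 121 TPM in knockouts. Both cages of DSS-treated mice were below every water-treated mouse but knockout 2. Zfp36 was at 43.5 to 113 TPM in water and at 70.5 to 132 TPM after DSS, with no order of cages. In water, knockout 2 was the lowest mouse for Fos, Fosb, Junb, Egr1, Atf3, Ier2, Dusp1 and Zfp36.

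**Figure D2:**
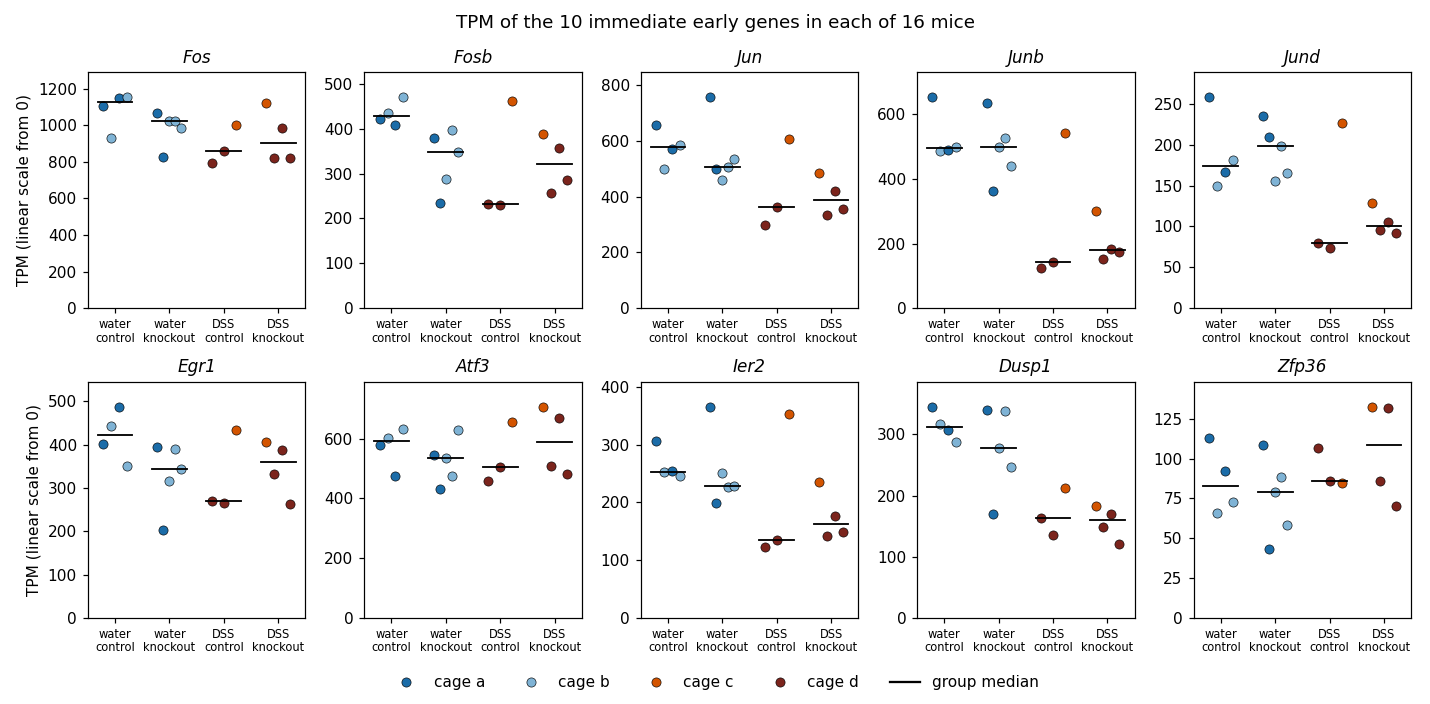
TPM (y axis, linear from 0) of each member in 16 mice by group (x axis), with points coloured by cage and a bar at the group median. Junb, Jund and Ier2 of DSS cage d lie below all water-treated mice, while the mice of cage c lie higher, at 300.1 and 541 TPM for Junb.

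Genotype was compared within each treatment. After DSS, 0 of the 10 members passed the test in knockout against control mice (limma on log2(TPM + 1), Benjamini-Hochberg adjusted over 10899 genes, adjusted p = 0.9997 for each), against a background of 0.00918% of genes called. Nor did any member reach an unadjusted p under 0.05, where the background was 2.65%. The log2 fold changes of knockout over control ran from -0.13 ± 0.50 (SE) for Junb to 0.14 ± 0.24 for Zfp36, with a median over the members of 0.02 beside 0.02 over all genes. Within cage d alone, with 2 controls and 3 knockouts, the difference for Junb was 0.33 ± 0.12 and for Jund 0.35 ± 0.10, where both had been below 0 over both cages, and neither was called (adjusted p = 0.962 and adjusted p = 0.921 by limma). Control 3 and knockout 1 of cage c thus weighed on these differences.

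In water-treated mice, 0 of 10 members were called among 11046 genes, with 0.00905% called overall. Fosb was the 1 member with an unadjusted p under 0.05 (background 5.28%). Its log2 fold change was -0.42 ± 0.16 (SE; limma, unadjusted p = 0.0269, adjusted p = 0.865). All 5 knockouts were below all 4 controls, as for 0.878% of genes, and the exact two-sided permutation test over 126 splits gave p = 0.0317. Egr1 was next, at -0.38 ± 0.20 (adjusted p = 0.865 by limma), with overlapping groups. The members' median was -0.14 beside 0.0015 over all genes, and 9 of 10 were lower in the knockout, Jund being higher at 0.04 ± 0.18. Leaving out each mouse in turn gave a Fosb difference between -0.49 and -0.30. Without knockout 2 the difference was smaller in size for every member, with Egr1 at -0.21, Dusp1 at -0.07, Zfp36 at -0.05, Junb at -0.02 and Ier2 at -0.01. That mouse had the highest summed leukocyte markers of the water-treated mice (14800 TPM), a sum in which the single gene Jchain reached 13800 TPM. By the mean log2(TPM + 1) over the leukocyte markers it was not the highest. It was at 4.36, below control 1 (4.68), knockout 4 (4.61) and control 4 (4.54). Whether genotype acted differently in the 2 treatments was not tested.

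Within a table, the largest median difference of the members lay between the cages of DSS-treated mice. With genotype in the fit, all 10 were lower in cage d than in cage c, by a median of -0.56 on the log2 scale against -0.04 over all genes. After adjustment over 10899 genes 0 members were called, and 0% of all genes were. At an unadjusted p under 0.05, 9 of 10 members were lower in cage d, where 12.9% of genes were. Junb differed most (log2 fold change -1.38 ± 0.26 SE, or 0.385 of the cage c level, adjusted p = 0.199 by limma). Ier2 (-1.002 ± 0.20) and Jund (-0.94 ± 0.25) followed with the same adjusted p. Zfp36 was the exception, at -0.19 ± 0.27. For 8 members, all 5 mice of cage d were below both mice of cage c, as were 15.6% of genes. With 21 splits, the exact permutation p of 1 member cannot be under 0.0476.

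These differences moved with GC content. Over the 10 members, the difference between cages and the GC content of the transcript had a Spearman rho of -0.87, as a description across genes, beside -0.64 over 10899 genes. The median difference of all genes was -0.58 above 60% GC (459 genes), -0.18 between 50 and 55% (2898 genes) and 0.31 at or under 45% (2508 genes). With the GC trend of each mouse removed, 2 of 10 members had an unadjusted p under 0.05 (background 7.66%), Junb at -0.74 ± 0.13 and Ier2 at -0.44 ± 0.13 (adjusted p = 0.409 and adjusted p = 0.559 by limma). Jund was then at -0.13 ± 0.10, Dusp1 was at -0.13 ± 0.15, and the median of the members was -0.28. Leaving out knockout 1 brought the count of all genes called between the cages to 326, with Junb at -1.999 ± 0.16, Jund at -1.55 ± 0.13 and Ier2 at -1.45 ± 0.17 among them (adjusted p = 0.037, adjusted p = 0.037 and adjusted p = 0.0392 by limma). Cage c was then the single mouse control 3, assumed to vary like the others. Leukocyte markers summed to 40.5 and 57.8 TPM in cage c and to 23.4 to 491 TPM in cage d, stromal markers to 80.7 and 130.1 TPM and to 73.5 to 300.1 TPM. Their part in the difference was not tested.

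**Figure D3:**
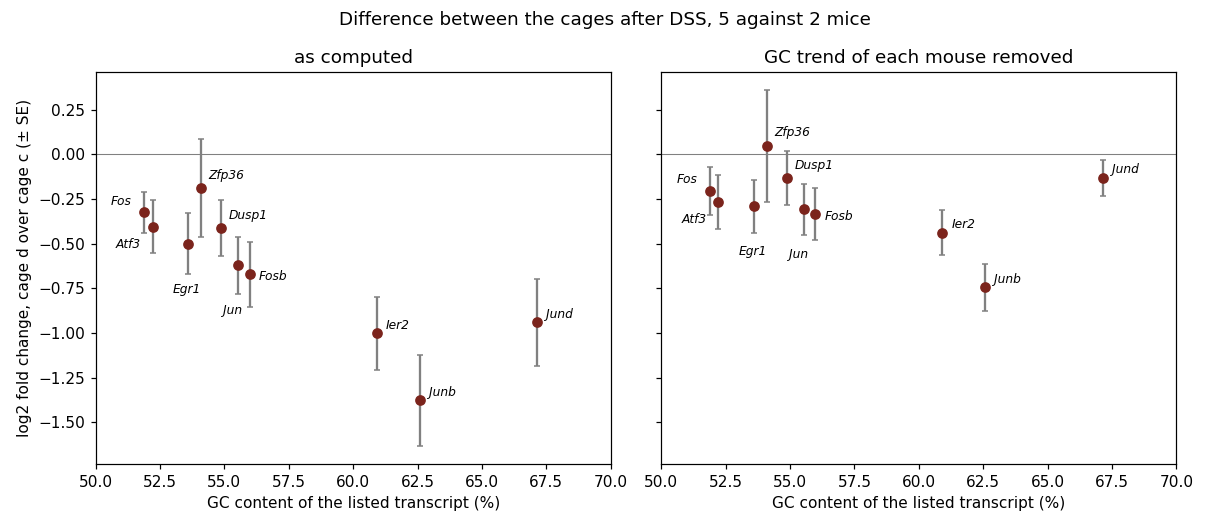
Log2 fold change of cage d over cage c after DSS (y axis, bars are SE, 5 against 2 mice) against GC content of the listed transcript (x axis) for the 10 members. As computed, the members above 60% GC lie lowest, and with the GC trend of each mouse removed Jund moves from -0.94 to -0.13 while Junb remains lowest at -0.74.

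In water, where cage and sex are the same split, 0 of 10 members were called between cage b and cage a (0.0362% of 11046 genes called). Jund was the 1 member with an unadjusted p under 0.05 (background 6.83%), at -0.35 ± 0.15 (adjusted p = 0.713 by limma), with overlapping cages. It was at -0.17 ± 0.13 with the GC trend removed. The other members lay between -0.25 ± 0.14 (Jun) and 0.19 ± 0.13 (Atf3).

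Between treatments the tables allow levels only. The selection of injured regions before digestion, made in DSS-treated mice alone, cannot be told apart from the treatment. The median DSS-treated mouse was below the median water-treated mouse for 9 of 10 members, by -1.51 for Junb, -0.92 for Jund, -0.91 for Dusp1 and -0.74 for Ier2 on the log2(TPM + 1) scale, and the remaining member, Zfp36, was at 0.12. The median over the members was -0.51, beside 0.28 over all genes. For 0 of 10 members were all DSS-treated mice below all water-treated mice, where 4.16% of 11247 genes were. Without the mice of cage c it was 4 members (Jun, Junb, Jund and Ier2), beside 7.53% of genes. One median-of-ratios rescaling of all 16 mice brought the median of all genes to -0.02, and then every member was lower after DSS, from -0.145 for Zfp36 to -1.85 for Junb. Under that scaling all DSS-treated mice were below all water-treated mice for Jun and Dusp1, as for 7.04% of genes. With the GC trend removed, Junb was at -1.20, Dusp1 at -0.88, Jund at -0.55 and Ier2 at -0.38, beside 0.18 over all genes, and Atf3 (0.09) and Zfp36 (0.34) were above 0. All 7 DSS-treated mice were then below all 9 water-treated mice for 2 members, Junb and Jund, as for 5.54% of genes.

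Ratios within a mouse do not depend on the scaling of the tables. The log2 ratio of Junb to Fos was -1.23 to -0.75 in the 9 water-treated mice and -2.65 to -2.24 in DSS cage d, with -1.90 in knockout 1 and -0.89 in control 3 of cage c. The log2 ratio of Dusp1 to Fos (54.9% against 51.9% GC) was -2.29 to -1.55 in water and -2.76 to -2.24 after DSS, with an overlap at the edge. The log2 ratio of Zfp36 to Fos went the other way, from -4.25 to -3.30 in water to -3.56 to -2.89 after DSS, and overlapped. With the GC trend removed, the ratio of Junb to Fos was -1.46 to -0.94 in water, -2.31 to -2.07 in cage d, and -1.88 and -1.37 in cage c, so that 1 mouse of cage c lay within the water range. Dusp1 to Fos was then -2.26 to -1.57 in water and -2.71 to -2.19 in cage d, and Zfp36 to Fos was -4.21 to -3.30 and -3.50 to -2.82, both still overlapping. Within the windows searched, Fos and Dusp1 share the TGACGT core shown above, and Zfp36 carries the CArG box. Any bearing of these motifs on the ratios was not tested. For Dusp1, 2.35% of the 31-base words of the listed transcript occur in none of its 5 other transcripts, so that a shift between isoforms and a change in level cannot be told apart.

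**Figure D4:**
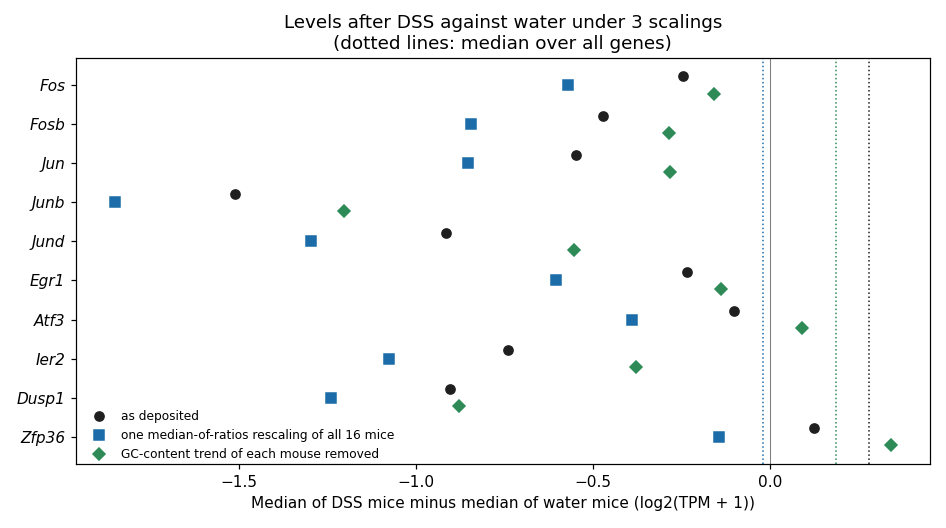
Median of 7 DSS-treated mice minus median of 9 water-treated mice (x axis, log2(TPM + 1)) for each member (y axis) under 3 scalings, with dotted lines at the median of all genes. Junb lies lowest under each, between -1.85 and -1.20, and Zfp36 and Atf3 change sign with the scaling.

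Spread between mice of a group was not high for these genes in water. The pooled SD within groups on the log2(TPM + 1) scale was 0.14 for Fos, 0.45 for Zfp36 and between these for the others, with a median of 0.27 beside 0.31 over 11046 genes, and the members' median percentile was 40.7. After DSS, the median SD was 0.375 beside 0.30 over 10899 genes, at a median percentile of 64.1. Junb had the largest (0.80, percentile 90.1), followed by Jund and Ier2 (both 0.59, percentiles 83.0 and 82.8), while Fos had the smallest (0.20, percentile 27.0). Set against genes at 50 TPM or more, which vary less, the members' median percentile was 61.2 in water (1206 genes) and 81.1 after DSS (1249 genes). After removal of the GC trend, the SD of Jund after DSS was 0.12 (percentile 11.8), that of Ier2 0.27 and that of Junb 0.42, while that of Zfp36 was 0.41, and the members' median percentile was 49.3 after DSS and 23.6 in water. No test was made of the spread.

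Deviations of the members from their group means were mostly of 1 sign in a mouse. Over the 45 pairs of members, the median Pearson r of deviations from the group means was 0.54 in 9 water-treated mice (43 pairs above 0) and 0.85 in 7 DSS-treated mice (45 pairs above 0), beside medians of 0 and 0.01 over all pairs of genes. The medians were 0.43 and 0.76 with the GC trend removed. Differences between cages stay in these deviations, and all 10 members were lower in DSS cage d than in cage c. Among water-treated mice, knockout 2 was the lowest for most members. The part of the cages and of that mouse in these r was not tested. As computed, Junb, Ier2, Jun, Jund and Fosb formed the tightest block after DSS, with r up to 0.995 between Junb and Ier2. These genes had the highest GC contents of the members, from 55.5% (Jun) to 67.1% (Jund). With the GC trend removed the largest r of any pair after DSS was 0.971. The part of that trend in the block was not tested. Zfp36 stood apart after DSS (r = 0.075 with Jund). In water, Zfp36 instead went with Junb (r = 0.944) and Dusp1 (r = 0.883), and Jund and Atf3 were the least tied to the rest.

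Fos, the best known of the group, was set against each other member in 18 relations. The p-values come from permuting deviations from group means across both genotypes. Such deviations are not freely exchangeable, so these p-values are approximate. After DSS, Atf3 followed Fos most closely (Pearson r = 0.970, permutation p = 0.00179, adjusted p = 0.0321, and Spearman rho = 0.929, permutation p = 0.00675, adjusted p = 0.121). In the limma fit with genotype, given below, this relation was not called. Its r was 0.973 without the 2 mice farthest from the median in Fos. The other 8 had r between 0.59 and 0.88 and adjusted p of 0.0607 or more by permutation. Those 2 mice, knockout 1 and control 3, were the mice of cage c, so that the r without them is the r over the 5 mice of cage d, a description at that number. It was 0.34 for Junb and 0.22 for Jund. Dropping the mice farthest in Fos narrows its range and can lower r by itself. These values therefore cannot show whether the relations rest on the mice of cage c. In water, r ran from 0.19 (Jund) to 0.77 (Zfp36, permutation p = 0.00736, adjusted p = 0.0607), and it was between -0.34 and 0.48 for all 9 without the 2 farthest mice.

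With the level of Fos as a covariate across all genes, 0 of the 9 other members were called after DSS (0% of 10898 genes). At an unadjusted p under 0.05, 8 of 9 had a positive slope, where 3.88% of genes did, from 1.11 ± 0.42 (Dusp1) to 3.13 ± 0.98 (Junb) log2 units per log2 unit of Fos, all at an adjusted p of 0.745 by limma. With the GC trend removed 3 of the 9 did, Jun, Atf3 and Ier2, where 2.22% of genes had a positive slope at that level. In water, 0 of 9 were called (0.00905% of 11045 genes), and Zfp36 alone had an unadjusted p under 0.05 (slope 2.43 ± 0.74, adjusted p = 0.999 by limma), where 2.63% of genes had a positive slope at that level. The 5 other genes whose level went most closely with the mean of the members in both tables were Pim3, a serine/threonine kinase (r = 0.923 after DSS and 0.959 in water), Tspan15, a tetraspanin (0.938 and 0.921), the triglyceride lipase gene Pnpla2 (0.935 and 0.885), Akt1s1, a subunit of mTORC1 (0.883 and 0.901) and the ribosomal protein gene Rps16 (0.882 and 0.880). These were the highest of 10149 genes by the lower of the 2 r and are a description. Their transcripts had 61.9% (Pim3), 51.2% (Tspan15), 58.5% (Pnpla2), 62.5% (Akt1s1) and 50.5% (Rps16) GC. After removal of the GC trend, Tspan15 was the one of these that stayed among the first 5, at r = 0.818 after DSS and 0.902 in water, and Akt1s1 and Rps16 were at ranks 159 and 131. The others of the first 5 were then Irak1, a kinase of interleukin 1 receptor signalling (0.874 and 0.856), Abraxas2 (0.947 and 0.851), Nupr1 (0.780 and 0.880) and Zfp131 (0.960 and 0.776). None of the first 5 as computed was in the early gene list, and Pnpla2 was listed at 0 in at least 1 mouse of each table.

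**Figure D5:**
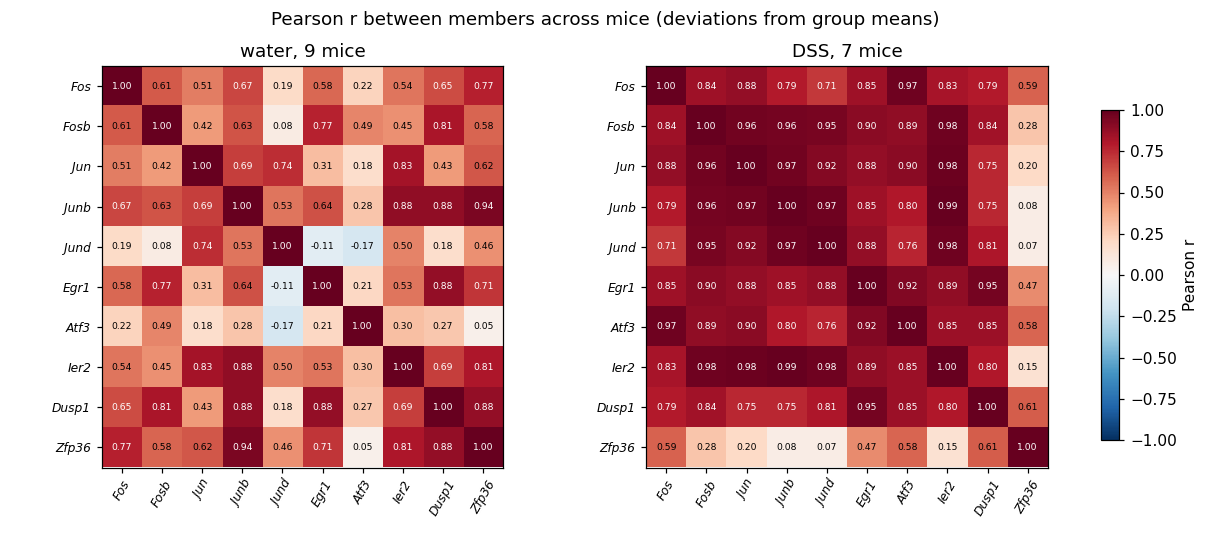
Pearson r between members across mice, as deviations from group means of log2(TPM + 1), in 9 water-treated mice (left) and 7 DSS-treated mice (right), with colour from -1 to 1. Pairs are mostly positive in both, and Zfp36 pairs strongly with Junb in water (0.94) and not after DSS (0.08).

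Of a wider list of 48 early response genes, 46 were tested after DSS and 47 in water, and 0 were called in any of the 6 fits. By genotype in water, 40 of 47 were lower in the knockout, as were 49.8% of all genes, with 4 at an unadjusted p under 0.05 (2.58% of all genes were lower at that level). Those with the largest differences were Fosl1, a Fos family subunit (-0.79 ± 0.27), Maff (-0.56 ± 0.22) and Klf6 (-0.42 ± 0.14), each at an adjusted p of 0.865 by limma. By genotype after DSS, 36 of 46 were higher, as were 52.8% of all genes, and 1 of 46, Egr2, was higher at an unadjusted p under 0.05 (0.53 ± 0.21, adjusted p = 0.9997 by limma), beside 1.44% of all genes. Between the DSS cages, 34 of 46 were lower in cage d, as were 53.4% of all genes, and 14 had an unadjusted p under 0.05 in that direction, beside 12.9% of all genes, with Gadd45g (-0.86 ± 0.27), Csrnp1 (-0.83 ± 0.19) and Arc (-0.77 ± 0.20) leading. After removal of the GC trend, 27 of 46 were lower (52.0% of all genes) and 3 had such a p (4.73% of all genes), with Gadd45g at -0.34 ± 0.18, Csrnp1 at -0.45 ± 0.17 and Arc at -0.30 ± 0.24. Arc, Fosl1 and Ppp1r15a also had the steepest slopes on Fos after DSS among the 11 of 46 with a positive slope at an unadjusted p under 0.05 (2.18 ± 0.43, 2.29 ± 0.37 and 2.17 ± 0.63), where 3.88% of all genes had one. The number was 10 with the GC trend removed, beside 2.22% of all genes.

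In levels, all DSS-treated mice were below all water-treated mice for 8 of 47 early genes, beside 4.16% of all genes, and above them for 1, beside 18.9%. With the GC trend removed 7 were below, beside 5.54% of all genes. Named after their values were seen, the 8 included Dusp5, a nuclear ERK phosphatase (53.5 to 86.4 TPM in water, 27.3 to 43.9 TPM after DSS), Klf2 (57.01 to 110 and 25.9 to 43.2 TPM), Sik1 (21.3 to 43.9 and 9.01 to 15.4 TPM) and the matricellular factor gene Ccn2 (11.4 to 26.0 and 2.25 to 8.79 TPM). Errfi1, a feedback inhibitor of the EGF receptor, was the 1 above (83.9 to 148 TPM in water, 166 to 263 TPM after DSS).

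The upstream list (kinases and factors that act on these promoters, 22 tested) and the list of other bZIP partners (8 tested after DSS and 11 in water) had 0 genes called in every fit. Between the DSS cages, Srf, which binds CArG boxes, was lower in cage d (-0.74 ± 0.18), as was the p38 activator gene Map2k3 (-0.59 ± 0.13), while the JNK gene Mapk8 was higher (0.60 ± 0.21), at adjusted p of 0.199, 0.199 and 0.226 by limma. Their GC contents of 64.4, 54.4 and 41.9% follow the same order. After removal of the GC trend, Srf was at -0.03 ± 0.17, Map2k3 at -0.34 ± 0.10 and Mapk8 at 0.30 ± 0.16. Of the bZIP genes, Atf2 was higher in cage d (1.27 ± 0.51), while Mafk (-0.80 ± 0.18) and Atf4 (-0.36 ± 0.10) were lower, at adjusted p of 0.249, 0.199 and 0.203 by limma. They were at 1.04 ± 0.56, -0.50 ± 0.14 and -0.12 ± 0.12 with the GC trend removed. Mafk was also lower in water-treated knockouts (-0.46 ± 0.12, adjusted p = 0.865 by limma). By genotype after DSS, Map2k7 (-1.17 ± 0.45) and Map2k6 (-0.82 ± 0.17) were the 2 upstream genes of 22 with an unadjusted p under 0.05, beside 2.65% of all genes. Both were at an adjusted p of 0.9997 by limma. The 11 heat shock genes, which digestion also induces, were all above 0 by genotype after DSS, as were 52.8% of all genes (median 0.53, 0 called, 0 at an unadjusted p under 0.05). Between the DSS cages their median difference was 0.40 (0.39 with the GC trend removed), opposite in sign to that of the members. The part of digestion in these differences was not tested. The heat shock genes' median difference between treatments was 0.92 in levels, beside 0.28 over all genes. It was 0.36 beside 0.18 with the GC trend removed, and 0.62 beside -0.02 under the rescaling of all 16 mice.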

How the data were processed

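RNA of sorted EpCAM+ cells from 16 mice was analysed by group, replicate number, cage and sex of the labels. The authors deposited 2 tables of TPM per transcript and mouse, 1 per treatment, made with kallisto and listing APPRIS principal transcripts only. The 2 tables may have been normalized separately. The authors' p-values, q-values and fold changes in these tables were not used. Of 29373 lines per table, 385 repeats were dropped, and TPM was summed per gene symbol. The members and all gene lists were chosen with earlier results of these data known. TPM gives no read depth, and the number of mice limits the precision.

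Within a table, log2(TPM + 1) of genes averaging 1 TPM or more was fitted with limma-trend (limma 3.58.1, R 4.3.3), and p-values were adjusted by Benjamini-Hochberg over all of them, with calls at 0.05. Cage and Fos fits held genotype as a covariate. For single members, mice were permuted between groups exactly (two-sided, no covariate). For the correlations with Fos, deviations from group means were permuted over all mice of a treatment, and p-values were adjusted over these relations only. On simulated tables with 100 genes changed by a log2 difference of 1 and 100 others by 2, the fits recovered 66% of the former after DSS and 62% in water for genotype. The changed genes were not near the floor, and the noise was independent between genes, without trends by GC content or cage. These shares are no estimate of power for a member with a large SE, such as Junb after DSS. Replicate numbers were not used to pair mice, which are different animals: over genes, deviations of same-numbered mice correlated between -0.20 and -0.03 in 3 DSS pairs and between -0.08 and 0.09 in 4 water pairs. GC content was taken from the listed transcript of each gene with the highest summed TPM, in GENCODE M21 (GRCm38), and promoters from RefSeq. The alternatives were another pseudocount, other filters on low values, rescaling, cage or leukocyte markers as covariates, the replicate block and leaving out each mouse. GC trends were removed by loess with a span of 0.5, added after the data were seen for members, other lists, ratios and nearest genes, as were cage as a covariate in the Fos fits, cage d alone and the levels without cage c. Besides the members, genes were named as those called in a list, or where none was, up to 3 with the largest difference at an unadjusted p under 0.05.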

Additional observations from a re-analysis of the deposited data

Results flagged for a closer look

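Of 30 sets of values, 1 for each member in each of the 3 groups of at least 4 mice, 2 held a mouse far from the others of its group, where chance gives about 1 in 20. Both were water-treated control 1, with Junb at 653 TPM (the other 3 controls lay between 487 and 498 TPM) and Ier2 at 307 TPM (the other 3 lay between 246 and 254 TPM). This mouse also had the highest Jund of the water-treated mice, at 258 TPM. Its GC trend, as the difference between the genes above 60% and those at or under 45% GC, was 0.33, the highest of the 4 water-treated controls. The part of that trend in these values was not tested.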

How the results depend on the processing

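Members were called in 0 of the fits as designed. Leaving out DSS knockout 1 called Junb (-1.999), Jund (-1.55) and Ier2 (-1.45) between the DSS cages, and no other setting called a member. The number of all genes called by genotype after DSS (1 as designed) was 0 with a pseudocount of 0.1, without a filter, with the GC trend removed, with the replicate block, with both of these and in cage d alone, and 0 to 3 without each mouse. In water (1 as designed) it was 0 with a pseudocount of 0.1, with genes of 5 TPM or more, with the replicate block and with the block and the GC trend removed, 4 without a filter, and 1 to 2 without each mouse. The count between water cages was 3 to 7 and that between DSS cages 2 without a filter and 0 to 326 without each mouse, the highest without DSS knockout 1. For Fos in water (1 as designed) it was 9 with a pseudocount of 0.1, 8 without a filter, 2 with genes of 5 TPM or more, 0 with the GC trend removed, and 0 to 3 without each mouse. The cause was not tested.

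The replicate block, used although the numbers do not pair the mice, turned the genotype difference after DSS to 0.0124 for Jun and 0.0069 for Ier2, and with the GC trend removed as well to 0.0617 for Jun, 0.0329 for Junb, 0.1415 for Jund, 0.1038 for Ier2 and 0.0313 for Dusp1. It changed no call of a member. Removing the GC trend alone gave 0.0179 for Jun, 0.0812 for Jund and 0.0392 for Ier2, cage as a covariate 0.0133 for Jun, 0.009 for Jund and 0.0217 for Ier2, and cage d alone 0.1536 for Jun, 0.3266 for Junb, 0.3492 for Jund, 0.2728 for Ier2 and -0.0476 for Zfp36. Each changed sign against the fit over both cages and none was called. Between water cages, Fos turned to -0.0062 under rescaling and -0.0111 with the GC trend removed, and Junb to 0.0244 with the GC trend removed. Between DSS cages, Zfp36 turned to 0.0483 with the GC trend removed. The slope of Jund on Fos turned to -0.3222 in water with the GC trend removed and to -0.1861 after DSS with cage as a covariate.

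Leaving out each mouse in turn changed the sign of Fos (-0.0148 to 0.17), Fosb (-0.0479 to 0.45), Jun (-0.25 to 0.25), Junb (-0.52 to 0.53), Jund (-0.36 to 0.45), Ier2 (-0.34 to 0.42) and Dusp1 (-0.27 to 0.0471) by genotype after DSS, of Jund (-0.0568 to 0.20) by genotype in water, of Fos (-0.10 to 0.0768), Junb (-0.28 to 0.068), Egr1 (-0.17 to 0.24), Ier2 (-0.36 to 0.0116), Dusp1 (-0.17 to 0.26) and Zfp36 (-0.55 to 0.0068) between water cages, of Zfp36 (-0.51 to 0.17) between DSS cages, and of Jund (-0.38 to 1.36), Egr1 (-0.17 to 2.56) and Atf3 (-0.51 to 0.81) in the slope on Fos in water. None of these was called.

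The members' median percentile of spread among all genes after DSS (64.1) was 55.73 with a pseudocount of 0.1, 49.3 with the GC trend removed and 54.8 to 70.01 without each mouse, and in water (40.7) it was 32.5, 23.6 and 23.6 to 46.5. The members' median difference between treatments (-0.51) was -0.85 under 1 rescaling of all mice, and -0.56 to -0.38 without each mouse. With 3 mice against 4 and 5 against 2, small differences could not be detected, and TPM of principal transcripts gives no depth.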
